A study of Homo sapiens with 18 samples.

Results

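Transcript levels of the cadherin (CDH) and protocadherin (PCDH) genes were examined in osteosarcoma (OS) Saos-2 cells grown in culture in several formats and as a tumor in mice. The members were chosen by gene name: CDH followed by a number, or a name starting with PCDH. Of the 97 genes that matched, 8 were left out, namely the X and Y paralogs PCDH11X and PCDH11Y and 6 names ending in P with or without a digit. The remaining 89 members, of 50119 genes in all, comprised 5 classical type I cadherins, 13 type II cadherins, 5 other cadherins, 10 non-clustered protocadherins, 54 protocadherins of the PCDHA, PCDHB and PCDHG clusters, and 2 antisense RNAs of PCDH9.

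The cells, Saos-2, are a human line established from OS, and all groups were labelled wild type. D-2 were cells grown in 2 dimensions and D-3 were cells grown in Matrigel, a basement membrane extract. DP-3 was a tissue printed from cells in a bioink of methacrylated gelatin and alginate that was set with blue light, sampled after 14 days and also after 1 day (DP-3 day 1). FIT was fresh tumor from 4-week-old female BALB/c nude mice injected under the skin with Saos-2 cells in Matrigel. IT was such tumor tissue cut into pieces and cultured on Matrigel. Excised tumors were divided between culture (IT) and direct use (FIT), so libraries of these groups can come from the same animals. Apart from DP-3 day 1, every group was labelled day 14. Each group had 3 libraries. All of them derived from 1 cell line, FIT and IT could hold mouse cells of the host, and no source used here gives separate cultures or animals for the replicates, so the p-values measure the spread between these libraries, which may be partly technical.

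Cadherins are calcium-dependent adhesion proteins of the cell surface. Classical cadherins bind like cadherins on neighboring cells and are tied to the actin cytoskeleton through catenins, and a high level of N-cadherin (CDH2) with little E-cadherin (CDH1) is typical of mesenchymal cells, including osteoblasts, which also carry OB-cadherin (CDH11). The clustered protocadherins are best known from neurons, where each cell uses its own combination of promoters, and members of the PCDHA and of the PCDHG cluster share their last exons with the other members of the same cluster.

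Total estimated counts ran from 23721666 in FIT replicate 3 to 79082786 per library. A count of 12 served as the detection limit, between 0.152 and 0.506 CPM (counts scaled to library size) depending on the library. It would stand for 3 read pairs if each gave 4 counts, which is uncertain. The labelled cell type was only partly borne out by its markers. COL1A1 (1.79 to 21.0 FPKM, that is, fragments scaled to transcript length and library size) and RUNX2 (0.610 to 2.41 FPKM) were detected in all 18 libraries, whereas the osteoblast genes ALPL, SP7 and BGLAP did not exceed 0.148, 0.0949 and 0.941 FPKM. Per library, 80 or 81 members had any count in DP-3 day 1 and 58 to 76 in the other groups, and this group also had more genes with any count overall (34593 to 34919 against 22915 to 29631).

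A few adhesion genes carried most of the signal. Per transcript length, CDH11, CDH13 and CDH2 together made up 50.2% to 72.6% of the summed FPKM of all members in every library. The mean of a group reached 10 FPKM for 4 members (CDH2, CDH11, CDH13 and PCDHGC3) and 1 FPKM for 19. A further 34 members had their highest group mean between 0.1 and 1 FPKM. The other 36 stayed below 0.1 FPKM in every group, among them all 16 PCDHA genes, and 9 of them never exceeded 12 estimated counts.

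**Figure D1:**
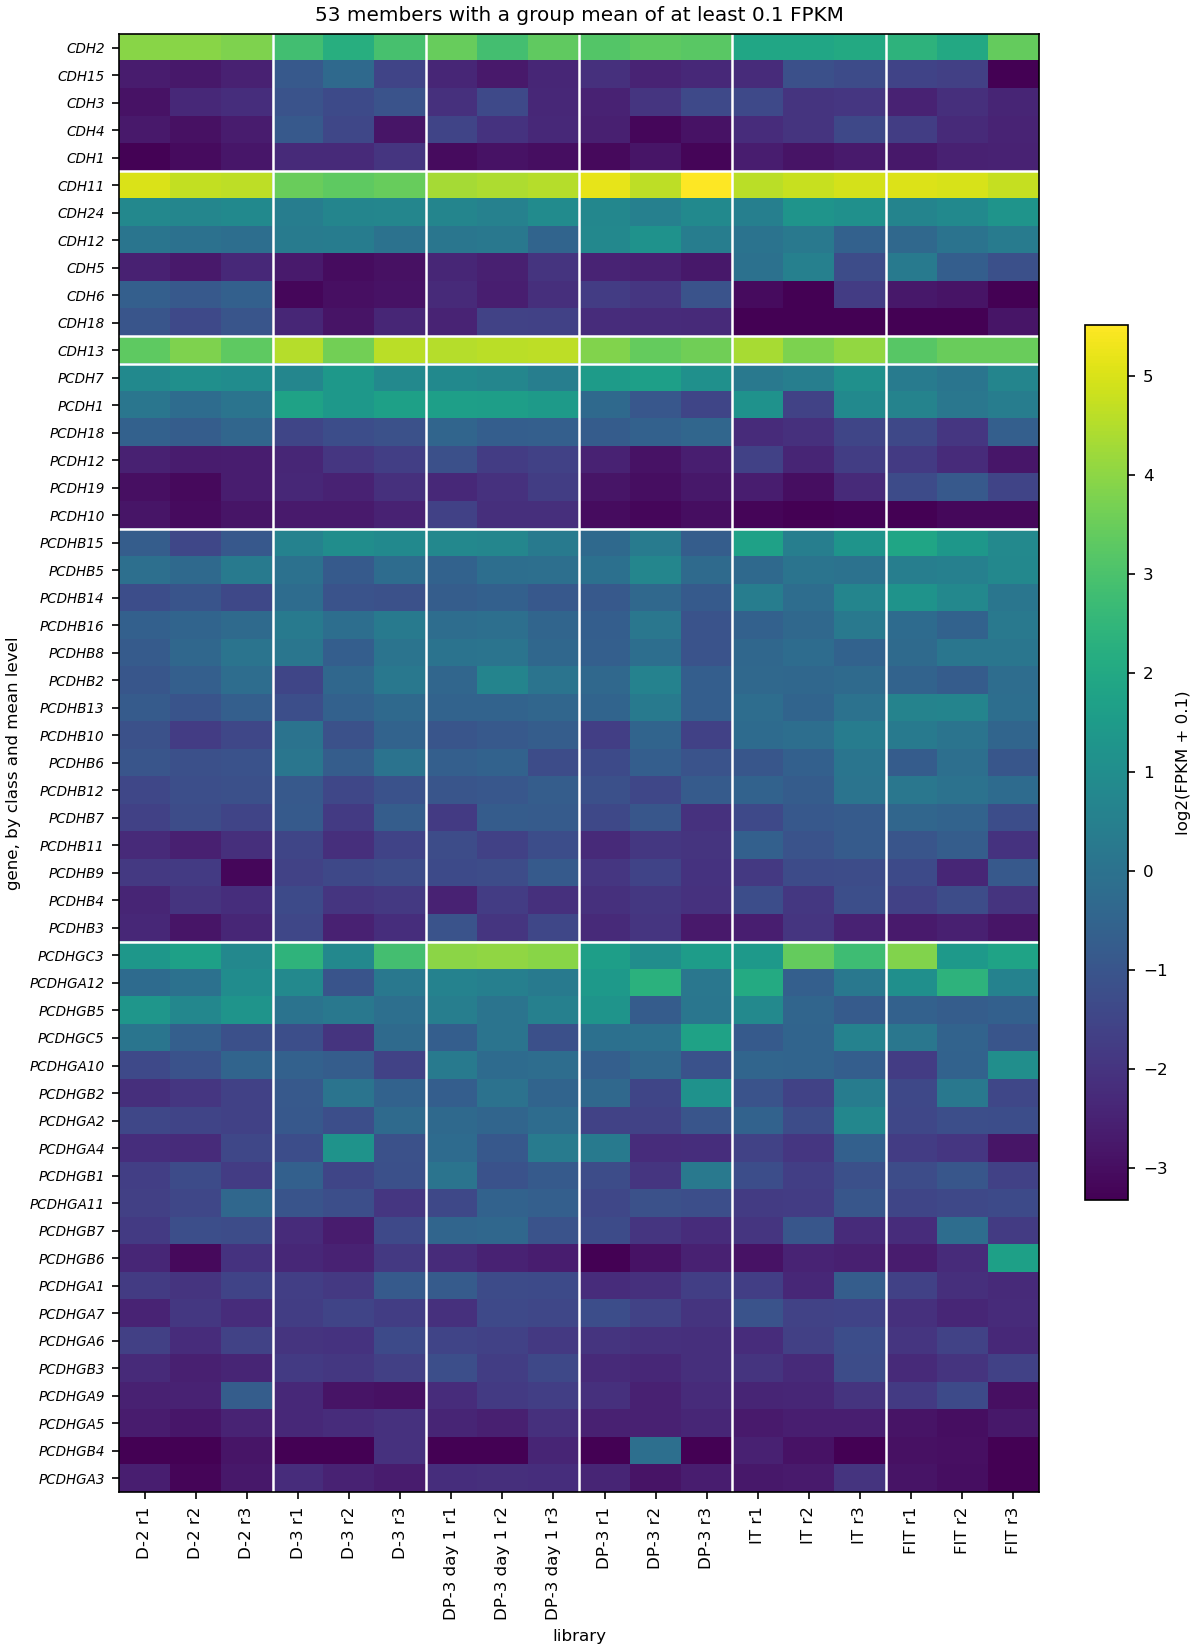
Level of the 53 members with a group mean of at least 0.1 FPKM (rows, ordered by class and by mean level) in each of the 18 libraries (columns), as log2(FPKM + 0.1). CDH2, CDH11 and CDH13 were bright in all libraries, PCDHGC3 was brightest in the 3 DP-3 day 1 libraries, and PCDHGB6 was bright in 1 FIT library alone.

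Comparisons were made with FIT, between the days of DP-3 and between culture formats, with the quasi-likelihood test of edgeR and p-values adjusted by the Benjamini-Hochberg method over all genes tested. A differentially expressed gene (DEG) had an adjusted p below 0.05 and a fold change of at least 2, and a gene was tested when 3 or more of the 6 libraries in a comparison reached 0.1 FPKM. Among all 6 groups in one fit of 18 libraries, 22 of the 54 members tested differed, a share close to that of all genes (37.3%). Members that passed this filter through the higher group alone had to differ. The counts below therefore describe the members and are not evidence that the family stood apart. Fold changes and p-values of such members are likewise descriptive. They were CDH6 and CDH18 (D-2 vs FIT, D-3 vs D-2), CDH5 (D-3 and DP-3 vs FIT) and PCDH19 (D-2 and DP-3 vs FIT). Others were CDH1 and CDH15 (D-3 vs D-2), and CDH4, PCDH10, PCDH12 and PCDH19 (DP-3 vs DP-3 day 1).

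In D-2 vs FIT, 4 of 44 members tested were upregulated (CDH2, CDH6, CDH18 and PCDHGB5) against 3.83% of all genes, and 7 were downregulated (CDH5, PCDH19 and 5 PCDHB genes) against 10.8%. In D-3 vs FIT, 2 of 48 were upregulated (CDH3 and PCDH1; background 4.29%) and 4 were downregulated (CDH5, CDH11, PCDH19 and PCDHB14; background 2.17%). In DP-3 vs FIT, PCDH7 alone of 44 was upregulated (background 1.66%), and 4 were downregulated (CDH5, PCDH19, PCDHB14 and PCDHB15; background 3.16%). The comparisons with FIT share the FIT libraries, so their calls are not independent of each other.

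IT vs FIT gave 0 DEGs among 44 members by edgeR, with a background of 0% in either direction. At an unadjusted p below 0.05 there were 4, with CDH13, PCDHGA2 and PCDHGA7 higher and PCDH19 lower in IT, and the lowest adjusted p was 0.22. DESeq2 called 2 members, PCDH19 (adjusted p = 0.00294) and PCDHGA7 (adjusted p = 0.0481), and edgeR in one fit of all 18 libraries called PCDH19 (adjusted p = 0.0225).

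In DP-3 vs DP-3 day 1, 4 of 47 members were upregulated at day 14 (CDH6, CDH11, CDH12 and PCDH7; background 1.81%) and 5 were downregulated (PCDH1, PCDH10, PCDH12, PCDH19 and PCDHGC3; background 5.76%). In D-3 vs D-2, 5 of 44 were upregulated (CDH3, CDH15, PCDH1, PCDHB15 and PCDHGB2; background 14.6%) and 6 were downregulated (CDH2, CDH6, CDH11, CDH18, PCDH18 and PCDHGB5; background 3.95%). In DP-3 vs D-2, no member of 41 was upregulated by edgeR (background 0.722%, 5 members at an unadjusted p below 0.05) and CDH18 alone was downregulated (background 0.318%). DESeq2 called 4 members there. The median log2 fold change of all genes was 0.11 in D-3 vs D-2 and lay between -0.09 and 0.03 in the other comparisons.

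**Figure D2:**
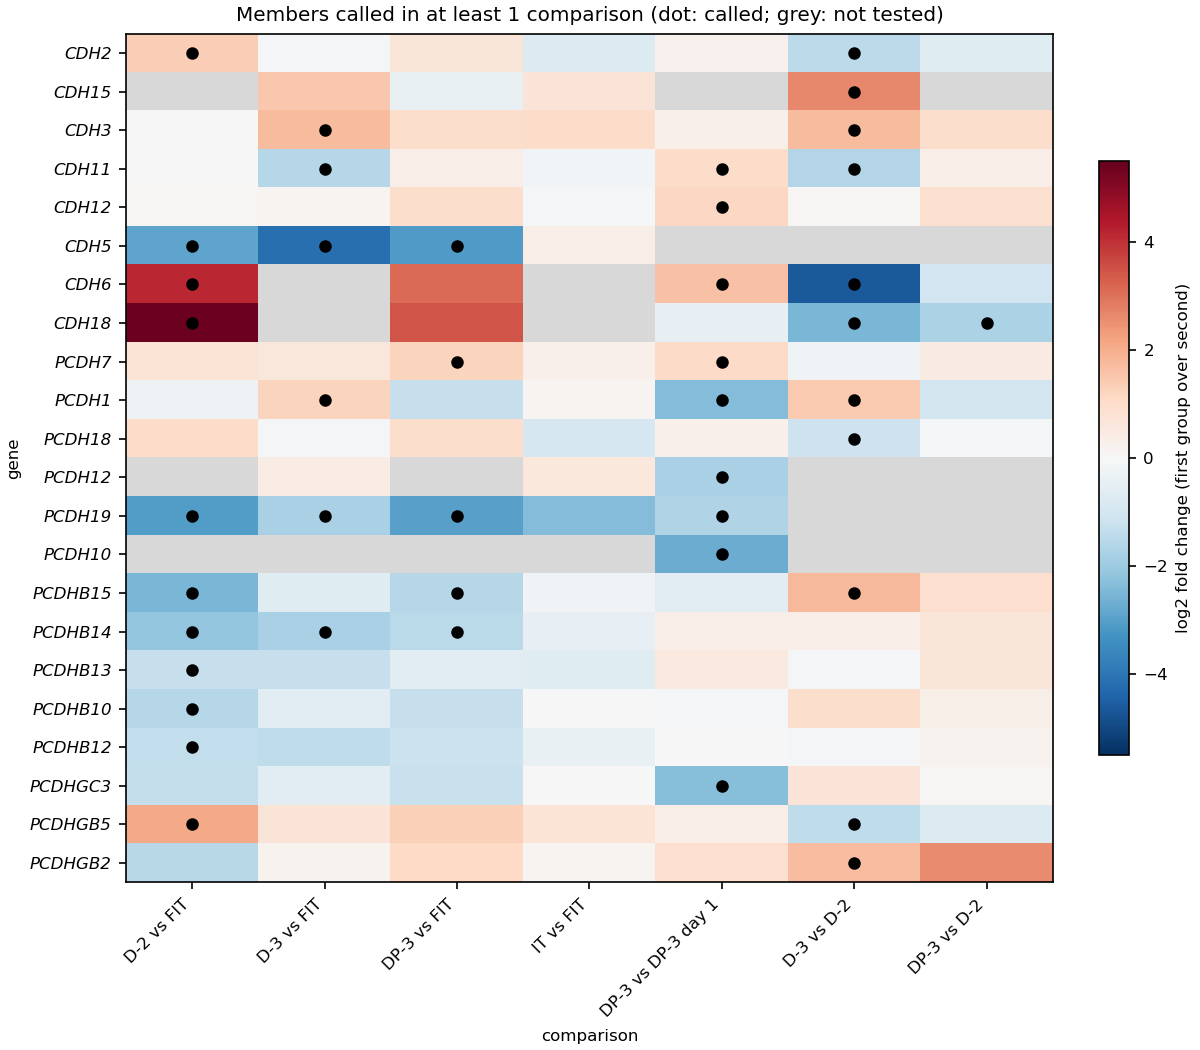
Log2 fold change of the 22 members called in at least 1 of the 7 comparisons (rows genes, columns comparisons, color scale from blue for lower to red for higher in the first-named group). Black dots mark DEGs and grey cells mark genes that did not pass the filter, and the IT vs FIT column holds no dot. The color of CDH18 in D-2 vs FIT is a fitted value against libraries at or near 0 counts and depends on the prior count.

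CDH2, which encodes N-cadherin, was the only classical type I cadherin above 1 FPKM, and its level was highest in D-2. In FPKM, CDH2 measured 5.12, 3.91 and 10.5 for FIT, 3.62, 3.65 and 4.05 for IT, 7.09, 4.59 and 7.5 for D-3, 15.3, 15.2 and 13.8 for D-2, 8.69, 9.93 and 9.44 for DP-3, and 10.9, 7.21 and 10.2 for DP-3 day 1. The D-2 libraries lay above all others, and FIT replicate 3 stood apart from the other FIT libraries. The gene was upregulated 2.54-fold in D-2 vs FIT (log2 fold change 1.35 ± 0.33 SE, adjusted p = 0.0208). This call was lost without any 1 of the 3 D-2 libraries, FIT replicate 1 or FIT replicate 2 (adjusted p 0.0502 to 0.0756). It was downregulated 2.75-fold in D-3 vs D-2 (-1.46 ± 0.19, adjusted p = 0.00272), a call kept under every alternative. DP-3 vs D-2 passed the adjusted p (0.026) but stayed under 2-fold (-0.68 ± 0.09).

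The other classical cadherins were scarce. CDH1, the epithelial E-cadherin, ranged from 0.00347 to 0.158 FPKM over the 18 libraries. Its D-3 libraries (0.108 to 0.158 FPKM) lay above all D-2 libraries (0.00347 to 0.0456 FPKM). CDH1 was no DEG by edgeR in fits of 6 libraries, but was called in D-3 vs D-2 by DESeq2 (log2 fold change 2.15, adjusted p = 0.0246) and by edgeR in one fit of all 18 libraries (2.14, adjusted p = 0.0278). CDH3, the P-cadherin gene that lies beside CDH1 on chromosome 16, measured 0.384, 0.294 and 0.374 FPKM in D-3 against 0.0344, 0.103 and 0.124 in D-2 and 0.0782, 0.128 and 0.0884 in FIT, with no overlap. It was upregulated 3.35-fold in D-3 vs D-2 (1.74 ± 0.49, adjusted p = 0.0309) and 3.38-fold in D-3 vs FIT (1.76 ± 0.44, adjusted p = 0.0489). The first call was lost without D-2 replicate 2, D-3 replicate 1 or D-3 replicate 3 (adjusted p 0.0687 to 0.0786). The second was lost without any 1 of the 6 libraries (0.0628 to 0.161). CDH15, the M-cadherin of muscle cells, was at 0.448, 0.709 and 0.249 FPKM in D-3 and 0.0581, 0.0499 and 0.0766 in D-2, an upregulation of 6.27-fold (2.65 ± 0.48, adjusted p = 0.00716). Of 11 skeletal muscle markers, 2 were tested in D-3 vs D-2, and both were upregulated. DES was at 0.568 to 1.51 against 0.115 to 0.374 FPKM. TTN was at 0.117 to 0.139 against 0.0365 to 0.0613 FPKM and passed the filter through D-3 alone, so its call is descriptive. In DP-3 day 1, DES (0.732 to 1.17 FPKM) and TTN (0.157 to 0.166 FPKM) also lay above D-2, whereas CDH15 was at 0.0537 to 0.0933 FPKM. The summed level of the list was 0.965 to 1.98 FPKM in D-3 and 0.157 to 0.537 FPKM in D-2, with MYLPF, TNNI2 and PVALB at or below 0.0889 FPKM in both groups, and its part in the CDH15 result was not tested. CDH4, the R-cadherin gene, reached 0.449 FPKM in 1 D-3 library and was no DEG by edgeR, while DESeq2 called it in DP-3 vs DP-3 day 1 (-1.78, adjusted p = 0.0408).

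Among the type II cadherins, CDH11, the OB-cadherin of osteoblasts and other mesenchymal cells, had the highest mean level of any member. It lies on the minus strand at chr16:64943753-65126112, in the coordinates of the files. CDH11 was measured, in FPKM, at 33.1, 31.7 and 26.7 for FIT, 24, 26.9 and 31 for IT, 11.2, 9.95 and 10.8 for D-3, 32.2, 26.1 and 24.5 for D-2, 36.5, 24.8 and 45.5 for DP-3, and 19.7, 21.2 and 22.9 for DP-3 day 1. The 3 D-3 libraries lay below every other library. CDH11 was downregulated 2.98-fold in D-3 vs FIT (-1.58 ± 0.16, adjusted p = 0.00269) and 3.08-fold in D-3 vs D-2 (-1.62 ± 0.13, adjusted p = 0.00115), and both calls held under every alternative. D-2 did not differ detectably from FIT (0.01 ± 0.14). The rise from day 1 to day 14 in DP-3 was at the threshold (2.03-fold, 1.02 ± 0.23, adjusted p = 0.0213). It was lost without any 1 of the 3 day 1 libraries or DP-3 replicate 1 (adjusted p 0.0525 to 0.0806), and without DP-3 replicate 3 the difference fell under 2-fold (log2 fold change 0.76).

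**Figure D3:**
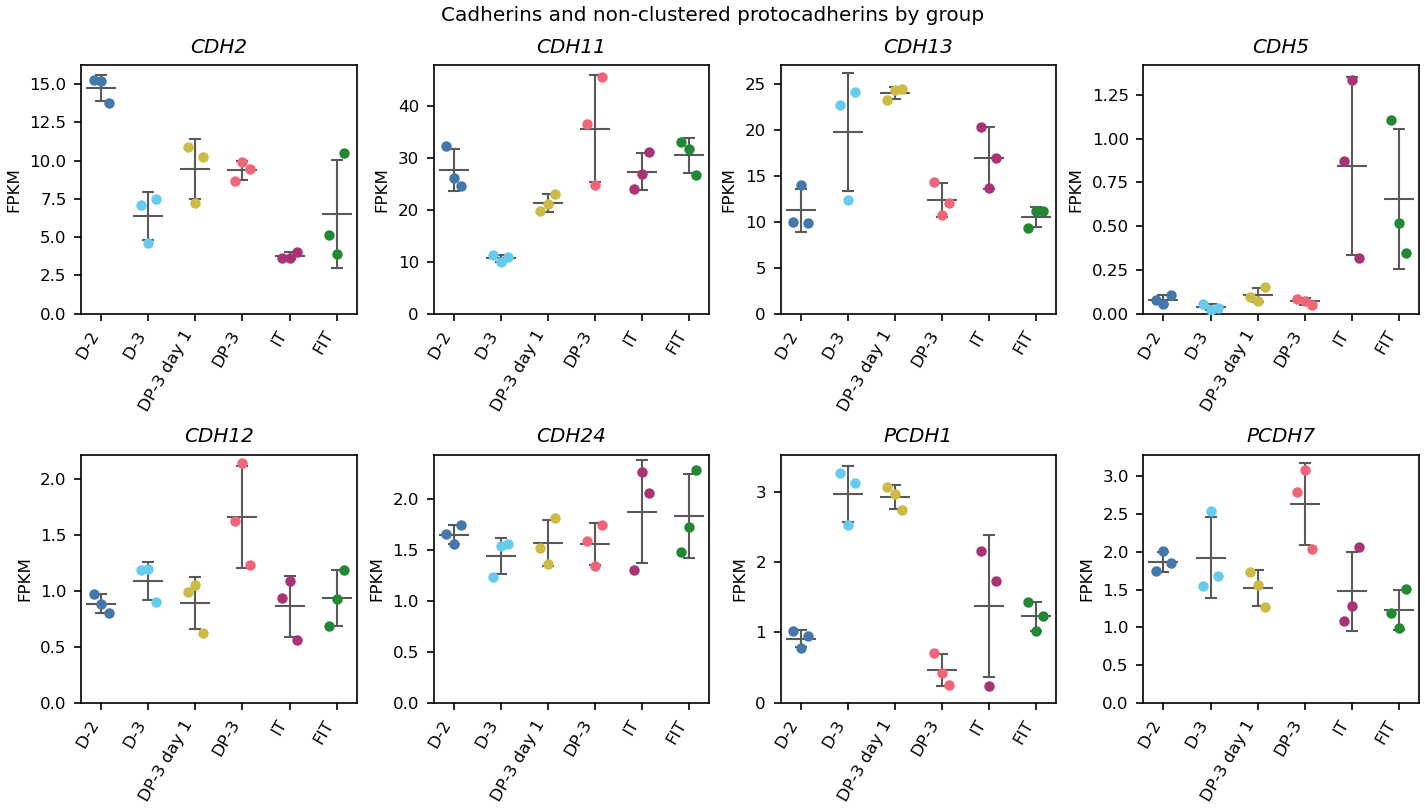
FPKM of 8 cadherins and non-clustered protocadherins (panels, vertical axes starting at 0) in the 6 groups. Points are libraries and grey bars the mean ± SD of 3 libraries. CDH2 was highest in D-2, CDH11 was lowest in D-3, CDH5 exceeded 0.3 FPKM only in IT and FIT libraries, and CDH24 varied little between groups.

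The ratio of CDH11 to CDH2, both in FPKM within a library, was lowest in D-3 (1.73 ± 0.385, SD, n = 3) and D-2 (1.87 ± 0.207), followed by DP-3 at day 1 (2.33 ± 0.571) and at day 14 (3.84 ± 1.2). The tumor tissues had 7.22 ± 0.529 (IT) and 5.70 ± 2.86 (FIT), where the libraries ranged from 2.54 to 8.10. CDH11 thus exceeded CDH2 in all 18 libraries, while the FIT libraries overlapped those of DP-3 day 1, DP-3 and IT.

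CDH24 and CDH12, type II cadherins whose roles are less well described, were the other members of this class above 1 FPKM. By library, the FPKM of CDH24 was 1.48, 1.73 and 2.29 for FIT, 1.3, 2.26 and 2.05 for IT, 1.24, 1.53 and 1.56 for D-3, 1.65, 1.56 and 1.74 for D-2, 1.59, 1.34 and 1.75 for DP-3, and 1.52, 1.36 and 1.81 for DP-3 day 1. All groups overlapped, and no comparison called it. The FPKM values of CDH12 were 0.688, 0.929 and 1.19 for FIT, 0.939, 1.09 and 0.563 for IT, 1.19, 1.2 and 0.898 for D-3, 0.976, 0.883 and 0.805 for D-2, 1.63, 2.14 and 1.23 for DP-3, and 0.994, 1.06 and 0.625 for DP-3 day 1. The DP-3 libraries were the highest, and the gene was upregulated 2.23-fold over day 1 (1.15 ± 0.27, adjusted p = 0.0243). That call was kept only when DP-3 replicate 3 was the library left out, and the adjusted p was 0.0541 to 0.0713 without any other.

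CDH5 encodes VE-cadherin, the cadherin of endothelial cell junctions, and it separated the samples that had been in mice from the rest. It measured 0.874, 1.34 and 0.320 FPKM in IT and 1.11, 0.516 and 0.343 in FIT. The 12 libraries of D-2, D-3, DP-3 day 1 and DP-3 lay between 0.0228 and 0.149 FPKM, below all 6 of IT and FIT. The gene was downregulated vs FIT by 7.44-fold in D-2 (-2.90 ± 0.52, adjusted p = 0.00768), 17.9-fold in D-3 (-4.16 ± 0.62, adjusted p = 0.00932) and 8.54-fold in DP-3 (-3.09 ± 0.52, adjusted p = 0.0198). For D-3 and DP-3 it passed the filter through FIT alone. The D-3 call was lost without D-3 replicate 3 (adjusted p = 0.0588) and the DP-3 call without any 1 of the DP-3 libraries (0.0632 to 0.0710). Without a FIT library, CDH5 was not tested in either comparison. IT and FIT overlapped (0.37 ± 0.60, adjusted p = 0.848).

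Other endothelial genes moved with CDH5 in part. Of a list of 9 endothelial markers, PECAM1 was at 2.93 to 5.01 FPKM in the IT and FIT libraries and at 0.792 to 1.80 in all others, and TEK was at 0.0912 to 0.579 FPKM in IT and FIT and at 0 to 0.156 elsewhere, so its ranges overlapped. ESAM ranged from 0.225 to 3.31 FPKM over the 18 libraries, and its FIT libraries (1.62 to 3.31 FPKM) lay above all D-2 and D-3 libraries. ROBO4 ranged from 0.741 to 3.55 FPKM, and its FIT libraries (1.40 to 3.55 FPKM) overlapped with all groups but DP-3. EGFL7 did not follow CDH5, with 0.813 to 1.35 FPKM in FIT, 2.33 to 3.53 in IT, 3.20 to 3.96 in D-3 and 2.02 to 2.31 in DP-3 day 1. Of 6 markers tested, 3 were downregulated in D-2 vs FIT (PECAM1, TEK and ESAM), 2 were downregulated and EGFL7 was upregulated in D-3 vs FIT, and PECAM1 alone was downregulated in DP-3 vs FIT. In D-2 vs FIT, TEK passed the filter through FIT alone, so its call is descriptive. VWF, KDR and CLDN5 stayed at or below 0.169, 0.0502 and 0.155 FPKM in all 18 libraries. The summed level of the list, most of it TIE1, ran from 36.8 to 51.3 FPKM for FIT, from 37.6 to 54.3 for IT, from 44.5 to 45.7 for D-3, from 27.9 to 29.6 for D-2, from 29.7 to 33.5 for DP-3 and from 50.5 to 51.9 for DP-3 day 1. Whether reads of mouse vessels entered the human gene was not tested, and in bulk samples fewer cells of a type and less RNA per cell cannot be told apart.

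CDH6, the K-cadherin gene, and CDH18 were highest in D-2. Both also exceeded the detection limit in every DP-3 and DP-3 day 1 library, and CDH18 did so in every D-3 library. In FPKM, CDH6 measured 0.0496, 0.0391 and 0 for FIT, 0.0201, 0 and 0.199 for IT, 0.0103, 0.0271 and 0.0346 for D-3, 0.544, 0.45 and 0.553 for D-2, 0.197, 0.166 and 0.379 for DP-3, and 0.106, 0.0664 and 0.126 for DP-3 day 1. The D-2 libraries lay above all others. CDH6 was upregulated 17.6-fold in D-2 vs FIT (4.13 ± 0.80, adjusted p = 0.00967) and downregulated 24.6-fold in D-3 vs D-2 (-4.62 ± 0.44, adjusted p = 0.00144). In both comparisons CDH6 passed the filter through D-2 alone. The increase in DP-3 over day 1 was 3.02-fold (1.60 ± 0.44, adjusted p = 0.0395). It was lost without any 1 of the day 1 libraries, DP-3 replicate 1 or DP-3 replicate 3 (adjusted p 0.0578 to 0.123).

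CDH18 measured 0.401, 0.286 and 0.405 FPKM in D-2 and 0.0937, 0.039 and 0.092 in D-3. DP-3 had 0.0838, 0.236 and 0.225 at day 1 and 0.116, 0.113 and 0.106 at day 14. It was at 0 in the 3 IT libraries and in 2 FIT libraries, with 8 counts in the other. Set against the limit of 12 counts per library, it was at least 9.77-fold higher in D-2 than in FIT (adjusted p = 0.0222). The call was lost without FIT replicate 1 (adjusted p = 0.0505) and with DESeq2. Without a D-2 library the gene was not tested there. CDH18 was downregulated 5.75-fold in D-3 vs D-2 (-2.52 ± 0.42, adjusted p = 0.00553) and 3.30-fold in DP-3 vs D-2 (-1.72 ± 0.27, adjusted p = 0.0336). In D-2 vs FIT and D-3 vs D-2 it passed the filter through D-2 alone. The DP-3 call was kept only when DP-3 replicate 3 was left out, and the adjusted p was 0.0680 to 0.150 without any other library. The remaining 7 type II cadherins (CDH7, CDH8, CDH9, CDH10, CDH19, CDH20 and CDH22) had no group mean above 0.0900 FPKM.

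CDH13 encodes T-cadherin, which is anchored to the membrane by a lipid and lacks the cytoplasmic tail that binds catenins. CDH13 was measured, in FPKM, at 9.25, 11.2 and 11.2 for FIT, 20.3, 13.6 and 16.9 for IT, 22.7, 12.3 and 24.1 for D-3, 9.97, 13.9 and 9.82 for D-2, 14.3, 10.8 and 12 for DP-3, and 23.2, 24.3 and 24.4 for DP-3 day 1. The DP-3 day 1 libraries were high and even, and D-3 replicate 2 lay apart from the other D-3 libraries. The level differed among the 6 groups (F = 6.32, adjusted p = 0.00936), yet no comparison reached 2-fold. DP-3 fell from day 1 to day 14 by 0.69 ± 0.12 on the log2 scale (adjusted p = 0.00919). CDH16, CDH17, CDH23 and CDH26 had no group mean above 0.0952 FPKM.

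The non-clustered protocadherins lack the catenin-binding tail of classical cadherins. PCDH1, known from airway epithelium, differed between culture formats. By library, the FPKM of PCDH1 was 1.44, 1.03 and 1.23 for FIT, 2.16, 0.235 and 1.73 for IT, 3.27, 2.52 and 3.13 for D-3, 1.02, 0.774 and 0.945 for D-2, 0.713, 0.423 and 0.258 for DP-3, and 3.07, 2.97 and 2.74 for DP-3 day 1. The D-3 and DP-3 day 1 libraries lay above all others, and the IT libraries spanned the range from the lowest level of all to 2.16. PCDH1 was downregulated 5.24-fold from day 1 to day 14 in DP-3 (-2.39 ± 0.34, adjusted p = 0.00463). It was upregulated 2.73-fold in D-3 vs D-2 (1.45 ± 0.18, adjusted p = 0.00262), and both calls held under every alternative. D-3 also exceeded FIT 2.32-fold (1.21 ± 0.23, adjusted p = 0.0201), which was lost without D-3 replicate 1, D-3 replicate 3 or FIT replicate 2 (0.0732 to 0.0958).

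The FPKM values of PCDH7 were 1.19, 0.984 and 1.51 for FIT, 1.08, 1.29 and 2.07 for IT, 1.55, 2.54 and 1.68 for D-3, 1.75, 2.01 and 1.85 for D-2, 2.8, 3.08 and 2.04 for DP-3, and 1.74, 1.55 and 1.27 for DP-3 day 1. DP-3 lay above DP-3 day 1 and FIT without overlap. It was upregulated in DP-3 by 2.35-fold vs FIT (1.23 ± 0.21, adjusted p = 0.0203) and 2.08-fold vs day 1 (1.05 ± 0.17, adjusted p = 0.00730). The call vs FIT was lost without DP-3 replicate 1 or 2 or FIT replicate 1 or 2 (0.0658 to 0.0774). The call vs day 1 fell under 2-fold without DP-3 day 1 replicate 3 or DP-3 replicate 2 (log2 fold change 0.92 and 0.95).

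PCDH19, a partner of N-cadherin in neurons, was highest in FIT, with 0.308, 0.454 and 0.255 FPKM. All other libraries lay between 0.0172 and 0.203 FPKM. It was downregulated vs FIT by 8.29-fold in D-2 (-3.05 ± 0.56, adjusted p = 0.00836), 8.02-fold in DP-3 (-3.0 ± 0.45, adjusted p = 0.0154) and 3.42-fold in D-3 (-1.77 ± 0.43, adjusted p = 0.0441). For D-2 and DP-3 it passed the filter through FIT alone. The DP-3 call was lost without DP-3 replicate 1 or 2 (0.0564 to 0.0679) and the D-3 call without any library but FIT replicate 3 (0.0868 to 0.152). In D-2 and DP-3 vs FIT, PCDH19 was not tested without a FIT library. In IT it measured 0.0626, 0.0240 and 0.107 FPKM, below all FIT libraries, with an adjusted p of 0.22 by edgeR.

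PCDH18 measured 0.569, 0.503 and 0.662 FPKM in D-2 and 0.263, 0.322 and 0.358 in D-3, a downregulation of 2.18-fold (-1.13 ± 0.25, adjusted p = 0.0136). It was lost without D-2 replicate 3 (adjusted p = 0.0524) and fell under 2-fold without D-3 replicate 1 (log2 fold change -0.97). From day 1 to day 14, DP-3 also lost PCDH10 (0.224, 0.127 and 0.126 to 0.0212, 0.0120 and 0.0251 FPKM, 6.56-fold, adjusted p = 0.00904), PCDH12 (0.349, 0.194 and 0.230 to 0.0798, 0.0333 and 0.0692 FPKM, 3.45-fold, adjusted p = 0.0349) and PCDH19 (0.101, 0.137 and 0.203 to 0.0400, 0.0268 and 0.0487 FPKM, 3.13-fold, adjusted p = 0.0357). PCDH12 is otherwise known from endothelium. The PCDH12 and PCDH19 calls were lost without DP-3 replicate 1 or 2 (0.0550 to 0.0624 and 0.0810 to 0.0828). Without a day 1 library, PCDH10, PCDH12 and PCDH19 were not tested. These low genes shared the larger number of members with any count in DP-3 day 1, whose part in the differences was not tested. PCDH8, PCDH9, PCDH15 and PCDH17 had no group mean above 0.0296 FPKM.

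Of the 89 members, 61 lay on chromosome 5. The files gave 141051374 to 141249365 as the span of the 16 PCDHB genes, 140786136 to 141012347 as that of the 16 PCDHA genes and 141330571 to 141512981 as that of the 22 PCDHG genes, all on the plus strand. The genome build is not given in the sources used here, but the positions of all 89 members overlapped those of the same identifiers in GENCODE release 29 (GRCh38). Each PCDHB gene has its own promoter and a single coding exon, so its reads do not pass through shared exons, although the genes resemble each other in sequence and a read can fit more than 1 of them.

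The PCDHB promoters were read from RefSeq (GRCh38.p14) because these genes have separate promoters and 5 of them were called together in D-2 vs FIT. Windows of 300 bases, from 250 before to 50 after the start, were found for 14 of the 16 genes. The 9 letters GGTGGCGCT, searched on both strands, stood in 13 of the 14 and in 176 of all 35116 windows (0.501%). They were chosen from these same windows, so their high share there followed from the choice and is no evidence. No other member with a window had them, and windows were found for 69 of the 89 members. The 100 bases before the start are shown for the 5 downregulated genes of D-2 vs FIT, for PCDHB2, which did not differ there, and for PCDHB1, which was too low to be tested, with the 9 letters in capitals and the strand plus throughout.
PCDHB10: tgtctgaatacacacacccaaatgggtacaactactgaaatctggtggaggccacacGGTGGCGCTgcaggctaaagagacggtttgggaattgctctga
PCDHB12: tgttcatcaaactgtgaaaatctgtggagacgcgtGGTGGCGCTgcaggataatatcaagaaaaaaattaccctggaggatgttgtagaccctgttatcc
PCDHB13: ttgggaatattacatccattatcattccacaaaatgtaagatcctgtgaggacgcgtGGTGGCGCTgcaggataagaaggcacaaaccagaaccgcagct
PCDHB14: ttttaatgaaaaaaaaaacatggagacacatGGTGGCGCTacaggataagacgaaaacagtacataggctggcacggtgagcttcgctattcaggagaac
PCDHB15: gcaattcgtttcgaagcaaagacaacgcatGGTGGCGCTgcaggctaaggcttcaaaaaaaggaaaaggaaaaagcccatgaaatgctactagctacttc
PCDHB2: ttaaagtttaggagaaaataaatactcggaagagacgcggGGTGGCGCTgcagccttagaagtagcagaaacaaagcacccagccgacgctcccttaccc
PCDHB1: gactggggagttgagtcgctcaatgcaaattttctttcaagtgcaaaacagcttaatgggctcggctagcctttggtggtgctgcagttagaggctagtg
These lie at chr5:141192253-141192352, chr5:141208619-141208718, chr5:141213819-141213918, chr5:141223243-141223342, chr5:141245295-141245394, chr5:141094515-141094614 and chr5:141051274-141051373. The motif began 43, 65, 43, 69, 70 and 60 bases before the start in the first 6 and was not found in the PCDHB1 window. It was present in 5 of 5 downregulated genes and in 7 of 7 tested genes with a window that were not called, so it did not separate them.

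In the beta cluster, 5 of the 14 genes tested were downregulated in D-2 vs FIT, against 10.8% of all genes. The summed FPKM of the 16 genes was 13.1 ± 1.97 (SD, n = 3) for FIT, 11 ± 1.89 for IT, 9.0 ± 1.5 for D-3, 5.66 ± 0.684 for D-2, 7.2 ± 2.78 for DP-3 and 8.8 ± 0.781 for DP-3 day 1. In D-2 vs FIT, 13 of the 14 genes tested had a log2 fold change below 0, as had 10565 of all 19513 genes (median -0.91, against -0.09 for all genes). Keratinocyte markers moved in the same comparison. KRT5 was at 0.642 to 2.04 FPKM in FIT and at most 0.1 in all other libraries, and KRT14 was at 0.115 to 10.4 FPKM in FIT and at most 0.336 elsewhere. Both were downregulated by edgeR for DP-3, D-3 and D-2 vs FIT, as were PCDH19 and PCDHB14. The other markers of this list were not called there, its summed level was 54.3 to 106 FPKM in FIT and 57.5 to 59.8 in D-2, and KRT1 was at 0 in both groups. In D-3 and DP-3 vs FIT, KRT5 and KRT14 passed the filter through FIT alone, so these calls are descriptive. In IT, KRT5 (0.0218 to 0.0689 FPKM) and PCDH19 (0.0240 to 0.107 FPKM) lay below all FIT libraries. By contrast, KRT14 (0 to 0.336 FPKM), PCDHB14 (0.785 to 1.51 FPKM) and PCDHB15 (1.27 to 3.24 FPKM) overlapped FIT in IT. The part of keratinocytes in the results for PCDH19 and the PCDHB genes was not tested. The 5 DEGs (PCDHB10, PCDHB12, PCDHB13, PCDHB14 and PCDHB15) were among the last 6 genes of the cluster. The other of the 6, PCDHB11, showed a difference of similar size (-1.65 ± 0.55, adjusted p = 0.0585) and was called by DESeq2 (adjusted p = 0.0171).

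In FPKM, PCDHB15 measured 3.57, 2.45 and 1.67 for FIT, 3.24, 1.27 and 2.3 for IT, 1.42, 1.89 and 1.71 for D-3, 0.51, 0.266 and 0.445 for D-2, 0.719, 1.18 and 0.511 for DP-3, and 1.63, 1.56 and 1.12 for DP-3 day 1. The D-2 libraries lay below those of every other group, with DP-3 replicate 3 closest to them. It was downregulated 5.65-fold in D-2 vs FIT (-2.50 ± 0.37, adjusted p = 0.00446), under every alternative. D-3 exceeded D-2 3.45-fold (1.79 ± 0.30, adjusted p = 0.00566). DP-3 was 2.94-fold below FIT (-1.55 ± 0.39, adjusted p = 0.0482), and this call was lost without any library but FIT replicate 3 (0.0713 to 0.146).

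PCDHB14 was measured, in FPKM, at 2.24, 1.64 and 1.02 for FIT, 1.24, 0.785 and 1.51 for IT, 0.772, 0.377 and 0.356 for D-3, 0.323, 0.387 and 0.274 for D-2, 0.45, 0.698 and 0.462 for DP-3, and 0.516, 0.557 and 0.439 for DP-3 day 1. All IT and FIT libraries lay above all others. It was downregulated vs FIT by 4.48-fold in D-2 (-2.16 ± 0.34, adjusted p = 0.00502), 3.40-fold in D-3 (-1.76 ± 0.45, adjusted p = 0.0488) and 2.80-fold in DP-3 (-1.48 ± 0.36, adjusted p = 0.0450). The D-3 and DP-3 calls were lost without any library but FIT replicate 3 (0.0635 to 0.178 and 0.0896 to 0.139).

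PCDHB10 measured 0.352, 0.20 and 0.267 FPKM in D-2 and 1.11, 0.956 and 0.636 in FIT. PCDHB12 measured 0.269, 0.332 and 0.342 and 1.04, 0.91 and 0.755, and PCDHB13 0.475, 0.394 and 0.545 and 1.43, 1.48 and 0.818. The groups did not overlap for any of them. PCDHB10, PCDHB12 and PCDHB13 were downregulated in D-2 vs FIT by 2.96-fold, 2.58-fold and 2.39-fold (adjusted p = 0.0173, 0.0112 and 0.0209). PCDHB10 was lost without D-2 replicate 2 or 3 (0.0569 to 0.0645) and PCDHB13 when replicate 1 or 2 of either group was left out (0.0531 to 0.0784). PCDHB5 had the next highest mean of the beta genes after PCDHB15. By library, the FPKM of PCDHB5 was 1.27, 1.34 and 1.64 for FIT, 0.716, 0.961 and 0.903 for IT, 0.886, 0.47 and 0.773 for D-3, 0.836, 0.704 and 1.1 for D-2, 0.849, 1.55 and 0.733 for DP-3, and 0.582, 0.806 and 0.835 for DP-3 day 1. It was no DEG by edgeR in fits of 6 libraries, but was called in D-3 vs FIT by DESeq2 (-1.06, adjusted p = 0.0175) and by edgeR in one fit of all 18 libraries (-1.08, adjusted p = 0.0299). In IT vs FIT, 9 of 14 beta genes were below 0 with a median of -0.10.

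**Figure D4:**
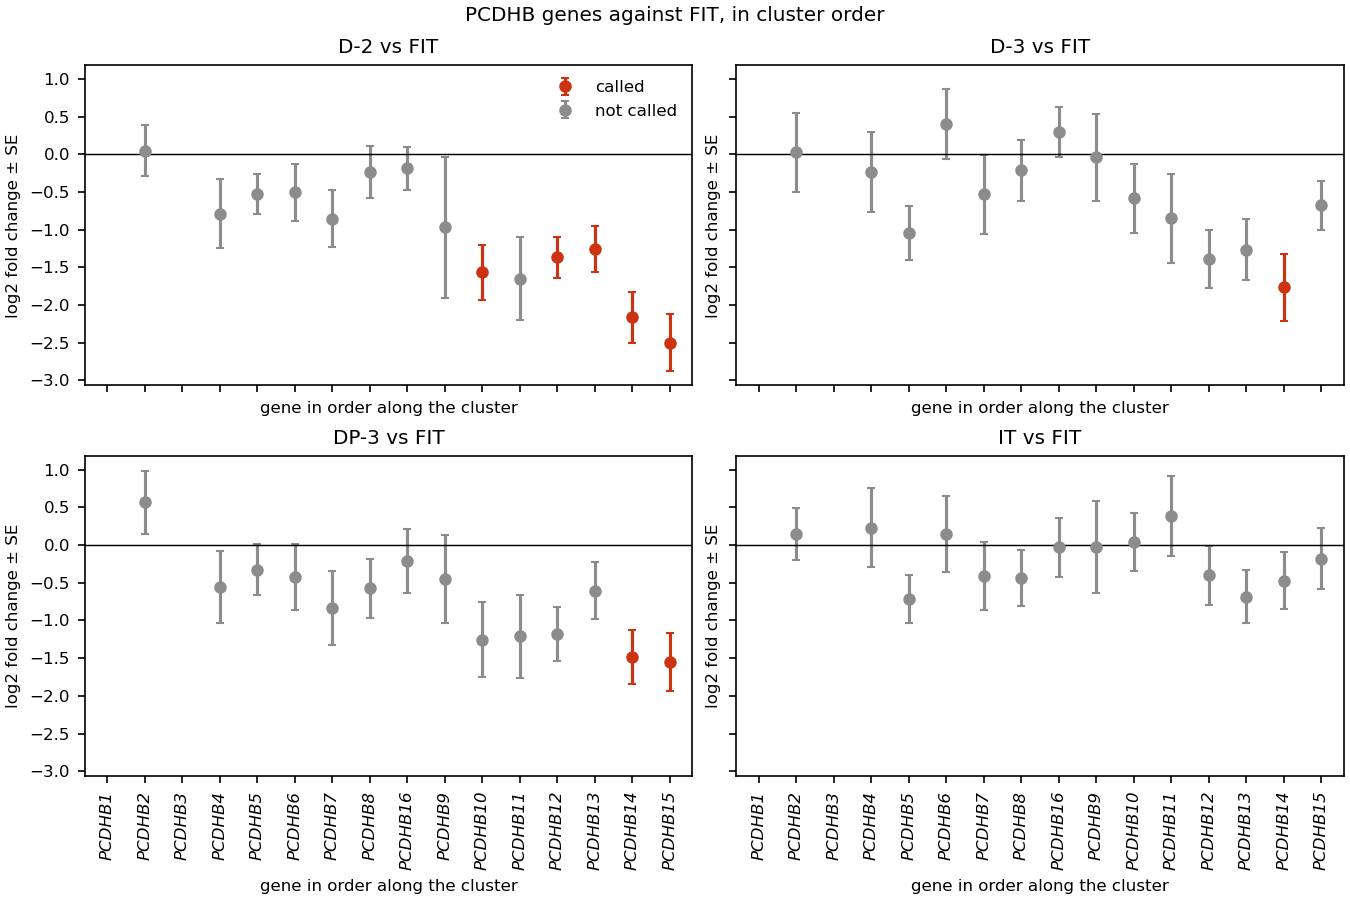
Log2 fold change ± SE vs FIT of the PCDHB genes tested, in their order along the cluster (left to right), for IT, DP-3, D-3 and D-2. Red points are DEGs and grey points are not, and PCDHB1 and PCDHB3 did not pass the filter. In D-2 the lowest points, down to -2.50 for PCDHB15, stood at the right, while in IT no gene was called.

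PCDHG genes share their last 3' exons, so that the assignment of reads to single members is uncertain. PCDHGC3 is a C-type gene at the end of the cluster that is used widely outside neurons. The FPKM values of PCDHGC3 were 14.2, 2.63 and 3.37 for FIT, 2.67, 10.7 and 6.72 for IT, 5.27, 1.66 and 7.18 for D-3, 2.46, 3.12 and 1.64 for D-2, 2.97, 1.93 and 2.83 for DP-3, and 15.6, 16.3 and 15.2 for DP-3 day 1. The day 1 libraries lay above all others, whereas 1 FIT library and 1 IT library stood well above their groups. PCDHGC3 was downregulated 5.03-fold from day 1 to day 14 (-2.33 ± 0.19, adjusted p = 0.00145), under every alternative. Its difference from FIT was not called by edgeR in D-2 (-1.31 ± 0.62, adjusted p = 0.150, against 0.0484 by DESeq2), D-3 (-0.56 ± 0.69, adjusted p = 0.670) or IT (0.04 ± 0.69, adjusted p = 0.990). The summed PCDHG level was 25.2 ± 0.558 FPKM (SD, n = 3) in DP-3 day 1 and 13.0 ± 1.02 in DP-3.

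In FPKM, PCDHGA12 measured 2.0, 5.18 and 1.42 for FIT, 4.07, 0.538 and 1.06 for IT, 1.68, 0.389 and 1.05 for D-3, 0.75, 0.891 and 1.88 for D-2, 2.62, 4.88 and 1.04 for DP-3, and 1.42, 1.31 and 1.11 for DP-3 day 1. The libraries of DP-3, IT and FIT differed several-fold within their own group. The gene was no DEG by edgeR, while DESeq2 called it lower in D-3 vs FIT (-1.56, adjusted p = 0.0480) and higher in DP-3 vs DP-3 day 1 (1.39, adjusted p = 0.00711). PCDHGB5 was measured, in FPKM, at 0.575, 0.512 and 0.557 for FIT, 1.67, 0.63 and 0.48 for IT, 0.919, 1.05 and 0.83 for D-3, 2.4, 1.62 and 2.26 for D-2, 2.28, 0.497 and 1.0 for DP-3, and 1.28, 0.943 and 1.34 for DP-3 day 1. The D-2 libraries lay above those of FIT, IT differed within the group, and DP-3 replicate 1 reached the D-2 level. It was upregulated 4.23-fold in D-2 vs FIT (2.08 ± 0.22, adjusted p = 0.00213). D-3 was 2.66-fold below D-2 (-1.41 ± 0.22, adjusted p = 0.00420). PCDHGB2 was at 0.130, 0.162 and 0.224 FPKM in D-2 and 0.453, 0.953 and 0.578 in D-3, an upregulation of 3.22-fold (1.69 ± 0.39, adjusted p = 0.0159) that was lost without D-2 replicate 1 or 2 (0.0557 to 0.0565). PCDHGB6 measured 3.18 FPKM in FIT replicate 3 and 0 to 0.175 FPKM in the other 17 libraries.

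**Figure D5:**
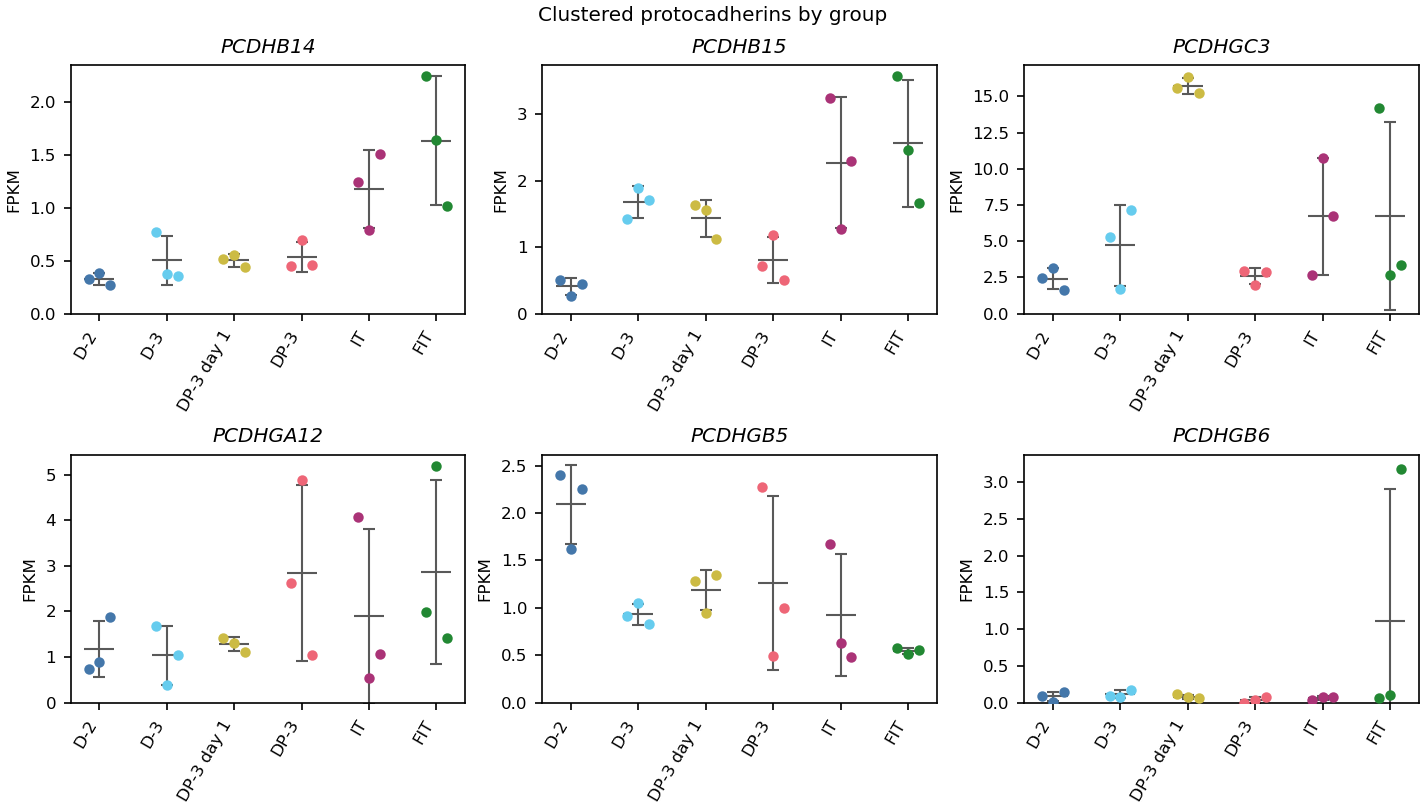
FPKM of 6 clustered protocadherins (panels, vertical axes starting at 0) in the 6 groups, with libraries as points and the mean ± SD of 3 libraries as grey bars. PCDHB14 and PCDHB15 were higher in IT and FIT than in D-2, PCDHGC3 was high in all DP-3 day 1 libraries, and the PCDHGB6 mean of FIT came from 1 library.

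PCDHA genes were nearly silent. The 2 with the highest mean over 18 libraries were PCDHA6 and PCDHA1. By library, the FPKM of PCDHA6 was 0.0472, 0.0077 and 0 for FIT, 0, 0 and 0.0952 for IT, 0.00844, 0.0377 and 0.0935 for D-3, 0.0207, 0.0207 and 0.0193 for D-2, 0.0283, 0.0464 and 0.0172 for DP-3, and 0.0671, 0.0606 and 0.0411 for DP-3 day 1. The FPKM values of PCDHA1 were 0.0258, 0.0253 and 0 for FIT, 0.0168, 0.00838 and 0.0919 for IT, 0.0427, 0.0352 and 0.0512 for D-3, 0.00756, 0.0148 and 0.0142 for D-2, 0.0155, 0.0145 and 0.0378 for DP-3, and 0.0349, 0.0332 and 0 for DP-3 day 1. Both stayed below 0.1 FPKM in every group mean, and none of the 16 passed the filter in any comparison. Their summed level was highest in DP-3 day 1 (0.409 to 0.468 FPKM per library) and did not exceed 0.255 FPKM in any other library. The antisense RNAs PCDH9-AS2 and PCDH9-AS3 never exceeded 12 counts.

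Among 16 cytoplasmic partners, the catenin genes CTNNA1, CTNNB1 and CTNND1 were present at 20.1 to 37.8, 23.7 to 38.7 and 11.1 to 20.3 FPKM and were no DEGs by edgeR. PLEKHA7, which ties the junction to microtubules, was upregulated vs FIT in D-2 (log2 fold change 2.38 ± 0.12, adjusted p = 0.000481), D-3 (2.71 ± 0.18, adjusted p = 0.000676) and DP-3 (2.78 ± 0.26, adjusted p = 0.00455). In D-2 vs FIT, 2 of the 9 partners tested were upregulated (3.83% of all genes) and 0 were downregulated (10.8%) by edgeR, with 1 lower at an unadjusted p below 0.05. In D-3 vs FIT these counts were 2 and 0 of 10 (4.29% and 2.17% of all genes), and in DP-3 vs FIT 1 and 1 of 9 (1.66% and 3.16%).

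Of 24 cadherin superfamily genes outside the name rule, 11 were tested in D-2 vs FIT, with CELSR2 upregulated and CDHR4, CDHR5 and CLSTN3 downregulated, against 3.83% and 10.8% of all genes. In D-3 vs D-2, 4 of 12 were upregulated (CELSR1, FAT2, CDHR4 and CDHR5; 14.6% of all genes) and 2 were downregulated (3.95%), with a median log2 fold change of 0.71. The 2 were FAT1 and FAT4, giant cadherins linked to Hippo signaling (-1.23 ± 0.10 and -1.59 ± 0.27, adjusted p = 0.00127 and 0.00547). FAT2 and CDHR4 passed the filter in D-3 vs D-2 through D-3 alone, and CDHR4 in D-2 vs FIT through FIT alone. These genes had to differ, so their calls are descriptive. Among 5 nectin and afadin genes, NECTIN1 was upregulated in D-2 and DP-3 vs FIT (1.02 ± 0.26 and 1.21 ± 0.29, adjusted p = 0.0255 and 0.0445) and in DP-3 vs day 1, where NECTIN4 was downregulated, and NECTIN4 was upregulated in D-3 vs D-2. The 6 repressors of CDH1 were all detected and tested. SNAI1 was upregulated in D-2 vs FIT (1.41 ± 0.22, adjusted p = 0.00526) and SNAI2 in DP-3 vs day 1 (1.45 ± 0.26, adjusted p = 0.00946). None of the 8 genes of cadherin-cleaving proteases was a DEG in any comparison by edgeR, although 0 to 4 of them had an unadjusted p below 0.05 in each.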

How the data were processed

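RNA from 18 libraries, 3 for each of 6 groups, was sequenced. The deposited FPKM values were computed by the authors with StringTie (version 1.3.4d) after trimming with cutadapt (version 1.9) and alignment with HISAT2 (version 2.0.4), as the study's methods describe, with versions from the submitters' processing notes, which also name DESeq2 and edgeR. The deposited estimated counts are whole numbers, and 33.3% of the 252323 counts from 1 to 100 were multiples of 4, against 25% by chance. A read pair may thus stand for about 4 counts, although most small counts were not multiples of 4, so this figure is uncertain. Counting error would then be larger than the totals imply. Aligner settings, genome build and counting strand are not given in the sources used here. Groups came from the labels, and the members and gene lists were chosen with earlier results of these data known.

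Each comparison was fitted on its 6 libraries with edgeR 4.0.16 (TMM scaling, quasi-likelihood test) in R 4.3.3, with Benjamini-Hochberg adjustment over all genes tested. A gene was tested when 3 or more libraries reached 0.1 FPKM and was called at an adjusted p below 0.05 with a fold change of at least 2. The test among the 6 groups used all 18 libraries. An exact permutation test of 3 against 3 libraries cannot give a p below 0.1 and was not used. In simulated data for D-2 vs FIT (19513 genes, 200 of them changed), 147 changed genes were recovered, 133 of 150 at 4-fold or more, with 8 false calls. The changed genes were drawn, evenly up and down, from genes with a mean CPM above the detection limit of every library. Recovery of members near or not far above the limit was therefore not examined. No 2 libraries had identical counts.

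Named with the FPKM of every library were members outside the clusters with a group mean of at least 1 FPKM and the 2 members of each cluster with the highest mean. All called members were named with fold changes, and other genes came from the partner and marker lists only. Other called members, and CDH1, CDH4 and PCDHGB6, were also given values by library or ranges, a choice made after their values were seen. Alternatives were DESeq2 1.42.0, limma 3.58.1 on log2(FPKM + 0.1) or log2(FPKM + 1), median-of-ratios scaling, no filter or a filter at 1 FPKM, one fit of all 18 libraries, a replicate block, and fits that each omit a single library. Promoters were read from RefSeq (GRCh38.p14). Over all 18 libraries, the marker lists of other cell types had summed levels of 0.157 to 5.47 FPKM (skeletal muscle), 5.97 to 29.4 (fibroblast), 46.2 to 105.8 (keratinocyte), 0.155 to 8.71 (adipocyte), 25.3 to 119.8 (macrophage) and 0.491 to 3.21 (Schwann and nerve).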

Additional observations from a re-analysis of the deposited data

Results flagged for a closer look

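For 6 members the difference from FIT had opposite signs in D-2 and D-3, and the direct comparison of D-3 with D-2 by edgeR's quasi-likelihood test, each group with 3 libraries, was called. CDH11 differed by -1.62 on the log2 scale (adjusted p = 0.00115), with 0.01 in D-2 vs FIT and -1.58 in D-3 vs FIT. CDH2 differed by -1.46 (adjusted p = 0.00272), from 1.35 and -0.07. CDH3 differed by 1.74 (adjusted p = 0.0309), from -0.02 and 1.76. PCDH1 differed by 1.45 (adjusted p = 0.00262), from -0.27 and 1.21. PCDH18 differed by -1.13 (adjusted p = 0.0136), from 1.0 and -0.09. PCDHGB2 differed by 1.69 (adjusted p = 0.0159), from -1.51 and 0.21. In each pair, at least 1 of the differences from FIT was not called, so its sign alone carries little weight.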

How the results depend on the processing

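Of the 43 calls of a member in a comparison, 7 were made under every alternative, 36 were lost under at least 1 and 0 changed direction. Leaving out 1 library ended 24 of them and 19 were kept in every such fit that still tested the gene. Calls that passed the filter through 1 group alone had only 3 such fits. Without a library of that group the gene was not tested. Numbers of members called moved as follows (edgeR, unless another tool is named). In D-2 vs FIT (11) there were 4 with a filter at 1 FPKM, 2 with limma on log2(FPKM + 1) and 6 to 13 without 1 library. In D-3 vs FIT (6) there were 11 with DESeq2, 3 with the filter at 1 FPKM, 3 with limma on log2(FPKM + 0.1), 1 with limma on log2(FPKM + 1) and 1 to 4 without 1 library. In DP-3 vs FIT (5) there were 9 with DESeq2, 2 and 0 with limma at the lower and higher pseudocount, 8 in one fit of all 18 libraries and 0 to 7 without 1 library. In IT vs FIT (0) there were 2 with DESeq2 and 1 in one fit of all 18 libraries. In DP-3 vs DP-3 day 1 (9) there were 3 with the filter at 1 FPKM, 2 with limma on log2(FPKM + 1) and 2 to 10 without 1 library. In D-3 vs D-2 (11) the same settings gave 5, 3 and 7 to 13. In DP-3 vs D-2 (1) there were 4 with DESeq2, 0 with the filter at 1 FPKM, 0 with limma at either pseudocount, 0 in one fit of all 18 libraries and 0 to 3 without 1 library. Among the 6 groups (22) there were 35 without a filter and 12 with the filter at 1 FPKM, which tests fewer genes. Other causes were not tested.

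The replicate numbers did not pair the samples, since deviations of same-numbered samples correlated at -0.037 to 0.068. This does not show that the IT and FIT libraries came from different animals. With the replicate block, edgeR called 10, 4, 0, 0, 6, 11 and 0 members in the 7 comparisons, in the order above, and 21 among the 6 groups. With 3 libraries a group and estimated counts, members below about 0.1 FPKM could not be compared at this depth.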
